A study of Mus musculus with 8 samples.

Results

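Collagens are the main fibre-forming and sheet-forming proteins of the extracellular matrix, and each molecule is a triple helix of 3 chains that are the same or different. The chain genes were taken as all protein-coding genes whose symbol is Col, a number, a and a number, which gave 44 of the 54116 genes in the deposited table. They were sorted by class into 11 fibrillar, 9 network-forming, 9 FACIT (fibril-associated collagens with interrupted triple helices), 6 beaded filament, 4 transmembrane, 2 multiplexin, 1 anchoring fibril and 2 other chains.

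The study compared mesenchymal stromal cells of the pancreas (pMSCs) with those of a subcutaneous fat depot, the inguinal white adipose tissue (iwatMSCs). Both organs came from the same male, 8-week-old, untreated C57BL/6J mice on a standard diet. Cells were sorted by flow cytometry as negative for CD31 (endothelial) and CD45 (leukocyte) and positive for SCA1 (stromal progenitors), and their RNA was taken after 4 days of expansion in culture. Sorted cells of 3 to 5 mice were pooled for culture, and mRNA-enriched RNA was sequenced in 4 pMSC and 4 iwatMSC libraries, here numbered in the order of the samples, and whether each library had its own pool is not stated. P-values therefore weigh the difference between organs against the spread of these libraries, which may not be the spread between mice or pools.

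Collagen chains are made by fibroblast-like cells as procollagens, hydroxylated and folded in the endoplasmic reticulum, trimmed outside the cell and then cross-linked. Fibrillar chains build the ropes of the interstitial matrix, network chains build sheets such as basement membranes, and FACIT chains and multiplexins sit on the surface of fibrils or next to basement membranes. Beaded filaments of type VI collagen surround cells, including adipocytes, and transmembrane chains stay in the cell membrane.

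The repeat that makes a helix can be read in the coding sequence, since glycine recurs at a fixed place in each triplet of residues and its codon begins with GG (GGN, N being any base). Over the longest annotated coding transcript of each gene, the longest unbroken run of GGN-NNN-NNN repeats ranged from 216 to 344 in the 11 fibrillar chains, with 21 to 33 coding exons of exactly 54 bases per gene. The longest run was 39 to 66 repeats in network chains, 32 to 113 in FACIT chains, 37 to 87 in beaded filament chains, 40 to 56 in transmembrane chains and 30 in both multiplexins. The following 4 stretches of 54 coding bases show how a run starts and how it ends, each numbered from the first base of the start codon in the GENCODE M21 transcript, with the GGN codons of the repeat in capitals. The first is at bases 502 to 555 of Col1a1-201 (chromosome 11) and the next at 490 to 543 of Col3a1-201 (chromosome 1), where runs of 338 and 344 repeats start. The others are at 460 to 513 of Col4a1-201 (chromosome 8) and 2128 to 2181 of Col15a1-202 (chromosome 4), where runs of 40 and 30 repeats end.
Col1a1 start of run: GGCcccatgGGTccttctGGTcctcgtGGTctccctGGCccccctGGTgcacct
Col3a1 start of run: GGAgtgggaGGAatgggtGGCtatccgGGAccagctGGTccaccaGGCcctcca
Col4a1 end of run: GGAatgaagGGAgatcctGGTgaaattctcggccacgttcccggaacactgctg
Col15a1 end of run: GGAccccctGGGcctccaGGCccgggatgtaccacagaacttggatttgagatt
The number of capital codons in a stretch follows from its place at the start or the end of a run and is no difference between classes. By the length of the longest run the fibrillar chains stood apart, at 216 or more against 113 or less in the other classes. The ranges of network, FACIT, beaded filament and transmembrane chains overlapped.

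Values are FPKM (sequenced fragments relative to transcript length and to the mapped total), summed over the transcripts of a gene and given as mean ± SD of 4 libraries. In pMSCs 0.358 to 0.438% of the FPKM of a library came from collagen genes, against 0.219 to 0.394% in iwatMSCs, and the summed collagen FPKM was 1742 ± 178 in pMSCs and 1393 ± 323 in iwatMSCs. Counting error cannot be given, because the number of reads per library is unknown. In RNA from a mass of cells, fewer cells that express a gene and less RNA per cell cannot be told apart.

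Of the 44 chains, 22 averaged 1 FPKM or more over the 8 libraries and were tested. The most abundant in pMSCs were Col1a2 (340 ± 31.0 FPKM), Col3a1, Col1a1, Col4a1, Col5a2 and Col4a2, all above 100 FPKM. Differences were tested with limma on log2(FPKM + 1), a scale on which fold changes of low genes are understated, and were called at a Benjamini-Hochberg adjusted p under 0.05 over all 13345 genes tested. By this test 12 of the 22 were called, where 19.4% of all genes tested were. Of these, 8 were higher in pMSCs (9.02% of all genes) and 4 were lower (10.4% of all genes). In 13 of the 22 the pMSC libraries lay wholly above (9) or wholly below (4) the iwatMSC libraries, which was so for 24.4% of all genes (10.9% above and 13.4% below). The median log2 fold change of the 22 was 0.24, against -0.03 over all genes tested. Among the tested members only Col14a1 had a group mean under 1 FPKM. Of the 22 chains not tested, 18 were under 0.5 FPKM in every library. Without the level filter Col11a1, Col4a3, Col8a2 and Col4a4 were called higher in pMSCs (adjusted p of 0.0148, 0.0191, 0.0355 and 0.0407) and Col24a1 lower (adjusted p = 0.0282), all at levels where the pseudocount weighs heavily. The same fit lost 7 of the 12 calls, those of Col3a1, Col5a1, Col4a2, Col23a1, Col6a1, Col6a2 and Col28a1 (adjusted p of 0.0576 to 0.0967). Over all genes it called 2791 of 29105 (1324 higher and 1467 lower), and of 43 collagen genes it called 8 higher and 2 lower.

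**Figure D1:**
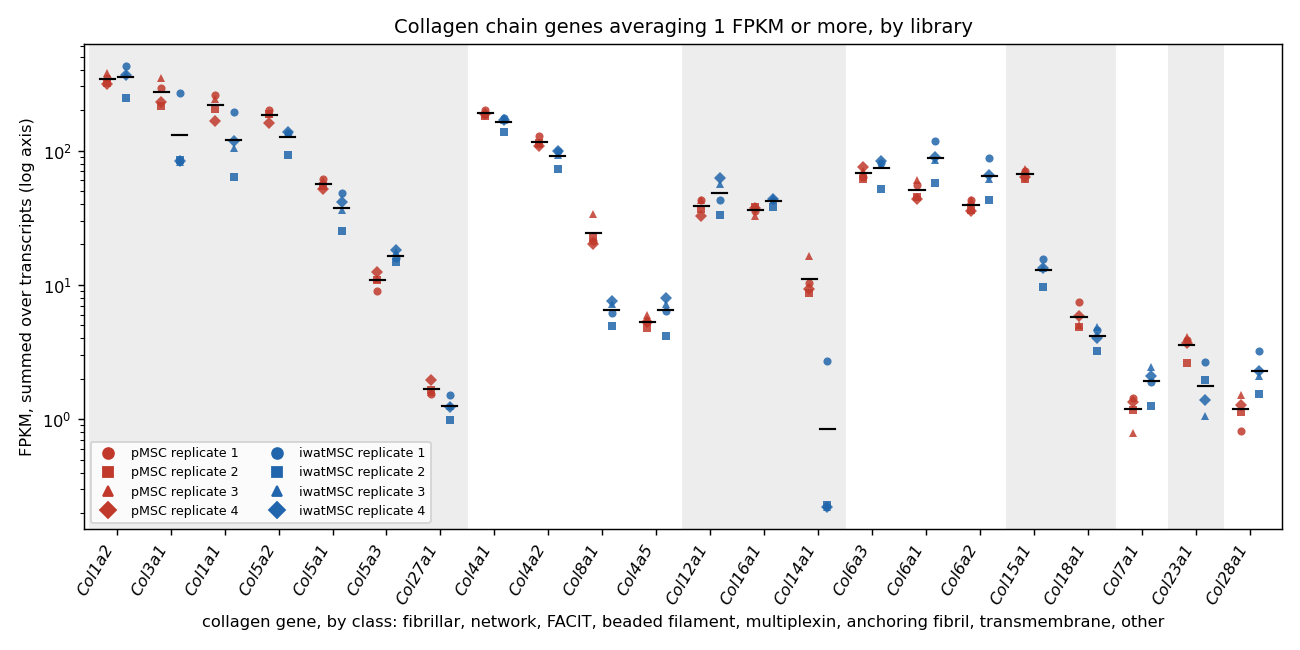
FPKM (log axis) of the 22 tested collagen genes in each of the 4 pMSC (red) and 4 iwatMSC (blue) libraries, with marker shapes for the replicates and a black line for the group mean, and with genes grouped by class. The groups are farthest apart in Col15a1, Col8a1 and Col14a1, and iwatMSC replicate 2 is the lowest of its group in 19 of the 22 genes.

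The 12 calls differ in how far they rest on single libraries. Those of Col15a1, Col8a1, Col14a1 and Col5a3 passed in each of the 8 fits that left out a library and in the fit without pMSC replicates 1 and 2, the libraries with the most pancreatic acinar RNA. The call of Col5a2 was lost only without pMSC replicate 1 (adjusted p = 0.0501) and without that pair (adjusted p = 0.131). The other 7 calls were lost on leaving out any of 5 to 7 of the 8 libraries. The study used a test that lets the variance differ between groups, on single transcripts and at an unadjusted p under 0.05. Here that kind of test was run on FPKM of genes, without the log2 scale, and was adjusted over all genes tested. In this form only Col15a1 (adjusted p = 0.00996) and Col5a3 (adjusted p = 0.0342) passed.

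Among the fibrillar chains 7 of 11 were tested, and 3 were higher and 1 was lower in pMSCs. Type I collagen, the bulk of interstitial fibrils, is built of Col1a1 and Col1a2 chains. Col1a2 was at 346, 319, 381 and 314 FPKM in pMSC replicates 1 to 4 and at 426, 248, 373 and 366 FPKM in iwatMSC replicates 1 to 4. The groups overlapped and the log2 fold change was -0.03 ± 0.15 (SE, adjusted p = 0.912), with a sign that differed between alternatives. Col1a1 was at 259, 204, 242 and 165 FPKM in pMSCs and at 194, 63.4, 105 and 117 FPKM in iwatMSCs. Only iwatMSC replicate 1 reached the pMSC range, and the log2 fold change of 0.94 ± 0.29 did not pass (adjusted p = 0.0532), while without that library it was 1.21 with an adjusted p of 0.00700. With all libraries Col1a1 was called after rescaling to TPM (adjusted p = 0.0467), with median-of-ratios scaling (adjusted p = 0.0488) and with array weights (adjusted p = 0.0108).

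Col3a1 encodes the chain of type III collagen, which forms fibrils together with type I in extensible tissue. It was at 294, 214, 349 and 230 FPKM in pMSCs and at 267, 85.2, 82.7 and 84.1 FPKM in iwatMSCs. Of the iwatMSC libraries 3 lay close together, far below every pMSC library, and iwatMSC replicate 1 lay inside the pMSC range. Col3a1 was higher in pMSCs by 1.24 ± 0.36 on the log2 scale (adjusted p = 0.0427). The call was lost without any of the 7 libraries other than iwatMSC replicate 1 (log2 fold changes of 1.09 to 1.34, adjusted p of 0.0613 to 0.111), and without iwatMSC replicate 1 the log2 fold change was 1.65 with an adjusted p of 0.000208.

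The 3 chains of type V collagen, a minor fibrillar collagen that sets the diameter of type I fibrils, did not share a direction. Col5a2 was at 200, 187, 187 and 161 FPKM in pMSCs and at 136, 93.1, 135 and 137 FPKM in iwatMSCs. The groups did not overlap, and Col5a2 was higher in pMSCs by 0.56 ± 0.13 (adjusted p = 0.0169). Col5a1 was at 61.4, 54.2, 59.6 and 52.0 FPKM in pMSCs and at 48.1, 25.0, 36.2 and 41.3 FPKM in iwatMSCs. Again every pMSC library was above every iwatMSC library, and Col5a1 was higher by 0.61 ± 0.17 (adjusted p = 0.0358), a call lost without any pMSC library and without iwatMSC replicate 3 or 4 (adjusted p of 0.0526 to 0.0887). Col5a3 was at 8.99, 10.8, 11.1 and 12.4 FPKM in pMSCs and at 15.7, 14.7, 17.6 and 18.04 FPKM in iwatMSCs. The order of the groups was the opposite, with no overlap, and Col5a3 was lower in pMSCs by -0.57 ± 0.10 (adjusted p = 0.00513).

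Col27a1, a fibrillar chain of cartilage in mouse, was low, at 1.54 to 1.96 FPKM in pMSCs and 0.982 to 1.51 FPKM in iwatMSCs (adjusted p = 0.121). The other 4 fibrillar chains averaged under 1 FPKM. Col24a1 was at 0.0992 to 0.417 FPKM in pMSCs and 0.671 to 1.61 FPKM in iwatMSCs, and Col11a1 at 0.439 to 0.711 and 0.0569 to 0.326 FPKM. In both genes the groups did not overlap, but the mean over the 8 libraries was too low for the test. After rescaling to TPM Col24a1 was tested and called lower in pMSCs (adjusted p = 0.0143). Col2a1, the main chain of cartilage fibrils, was listed at 0 in every pMSC library and was at 0.097 FPKM or less in iwatMSCs, and Col11a2 reached 0.214 FPKM at most. Of the 12 annotated transcripts of Col11a2, 8 were in the table, so its values rest on part of the gene.

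**Figure D2:**
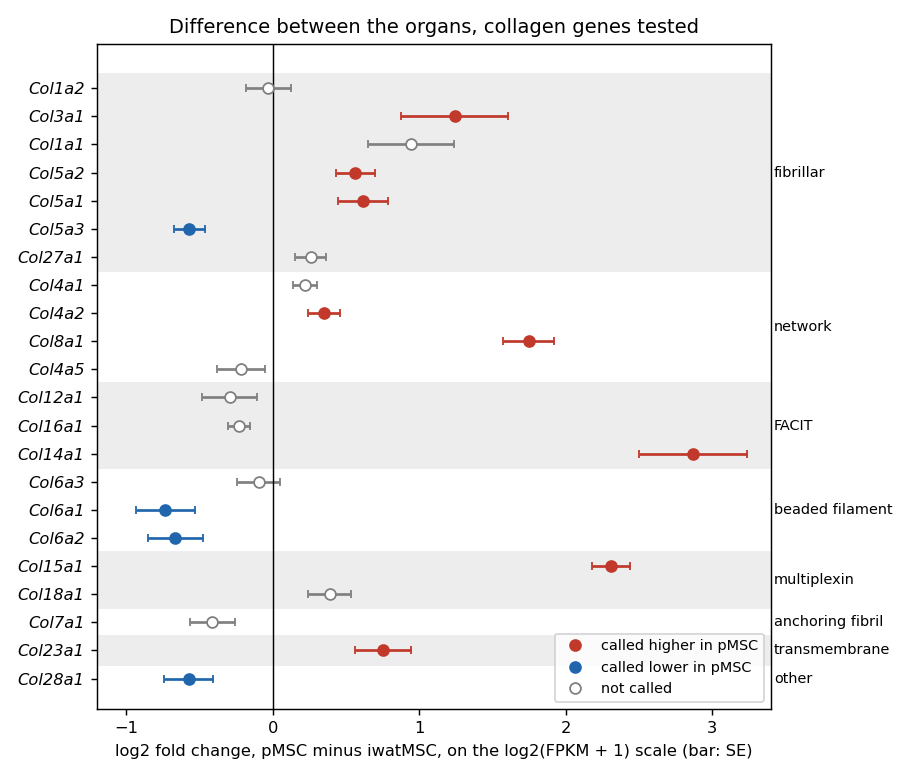
Log2 fold change (pMSC minus iwatMSC, on the log2(FPKM + 1) scale) of the 22 tested collagen genes by class, with the standard error as a bar, filled red where called higher and blue where called lower in pMSCs, and open where not called. Col14a1 (2.87), Col15a1 (2.31) and Col8a1 (1.75) stand at the right, and Col6a1 (-0.73) and Col6a2 (-0.67) at the left.

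Among the network chains 4 of 9 were tested, of which Col8a1 and Col4a2 were higher in pMSCs. Col8a1 encodes a short-chain collagen of vessel walls and of the membrane under the corneal endothelium. It was at 21.3, 22.2, 34.0 and 20.1 FPKM in pMSCs and at 6.16, 4.97, 7.19 and 7.62 FPKM in iwatMSCs. Every pMSC library was far above every iwatMSC library, pMSC replicate 3 most of all, and Col8a1 was higher by 1.75 ± 0.17 (adjusted p = 0.000155), a 3.76-fold ratio of the group means. Its partner chain Col8a2 was at 0.173 to 0.395 FPKM in pMSCs and at 0.0873 FPKM or less in iwatMSCs.

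Type IV collagen is the scaffold of basement membranes, and its common form is built of Col4a1 and Col4a2 chains. Col4a2 was at 128, 114, 112 and 107 FPKM in pMSCs and at 98.9, 72.5, 93.0 and 98.7 FPKM in iwatMSCs. Col4a1 was at 202, 182, 187 and 186 FPKM in pMSCs and at 175, 138, 168 and 169 FPKM in iwatMSCs. Both genes had all pMSC libraries above all iwatMSC libraries, by a small margin. Col4a2 was higher by 0.35 ± 0.11 (adjusted p = 0.0496), a call lost without any library other than iwatMSC replicate 1 (adjusted p of 0.0562 to 0.126), and Col4a1, with 0.22 ± 0.08, did not pass (adjusted p = 0.1003). Their ratio within a library did not pass either (exact permutation test, adjusted p = 0.114).

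Col4a1 and Col4a2 lie head to head on chromosome 8. In GENCODE M21 on GRCm38, Col4a1 (chr8:11198423-11312826, minus strand) and Col4a2 (chr8:11312805-11449287, plus strand) overlap by 22 bases at their starts. The ratio of Col4a1 to Col4a2 was 1.58 to 1.90 in all libraries, and a link between this ratio and the shared start was not tested. The overlap, chr8:11312805-11312826, is shown on the plus strand, with a GC box (GGGCGG) in capitals.
Col4a1 and Col4a2 shared start: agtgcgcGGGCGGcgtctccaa
Col4a4 and Col4a3 also start from opposite strands, 71 bases apart, and Col4a6 and Col4a5 1308 bases apart. Col4a5, an X-linked chain of a basement membrane network, was at 4.73 to 5.98 FPKM in pMSCs and 4.19 to 8.01 FPKM in iwatMSCs (log2 fold change -0.22, adjusted p = 0.397), and called lower only without iwatMSC replicate 2 (adjusted p = 0.0409). Col4a3, Col4a4, Col4a6 and Col10a1, a chain of hypertrophic cartilage, were at 0.254 FPKM or less in every library.

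Of the FACIT chains 3 of 9 were tested. Col14a1, which coats fibrils of type I collagen in skin and tendon, was at 10.3, 8.63, 16.3 and 9.28 FPKM in pMSCs and at 2.73, 0.228, 0.223 and 0.221 FPKM in iwatMSCs. All pMSC libraries were above all iwatMSC libraries, of which 3 were nearly equal and iwatMSC replicate 1 was above them. Col14a1 was higher in pMSCs by 2.87 ± 0.37 (adjusted p = 0.000699), and without iwatMSC replicate 1 the log2 fold change was 3.27. Its size depends on the pseudocount, with 4.29 at a pseudocount of 0.1 and 1.46 at 5, where Col15a1 was at 2.39 and 2.02. Annotated genes on the strand opposite to Col14a1 had 1.88 FPKM (Gm18787) and 0.908 FPKM (Gm49257) on average in pMSCs. In iwatMSCs they had 1.37 and 1.18 FPKM. Opposite to Col5a1, Gm13372 averaged 3.58 FPKM in pMSCs and 1.85 FPKM in iwatMSCs, and 2810430I11Rik 1.21 and 0.9065 FPKM. The strand setting of the authors' counting is not stated, so reads of such overlaps cannot be told apart.

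Col12a1, which bridges type I fibrils in dense connective tissue, was at 42.8, 36.5, 42.5 and 32.4 FPKM in pMSCs and at 42.6, 33.2, 56.5 and 62.1 FPKM in iwatMSCs. The groups overlapped (-0.30 ± 0.19, adjusted p = 0.310). Col16a1, found in fibrils of skin and cartilage, was at 35.7, 38.1, 32.5 and 37.05 FPKM in pMSCs and at 42.9, 38.3, 44.3 and 43.6 FPKM in iwatMSCs. The groups did not overlap, with a narrow gap between pMSC replicate 2 and iwatMSC replicate 2, and the log2 fold change of -0.23 ± 0.07 did not pass (adjusted p = 0.0570), except without iwatMSC replicate 2 (adjusted p = 0.0331) among the fits that left out a library. The other 6 FACIT chains were low. Col9a3 was at 0.7105 FPKM in iwatMSC replicate 1 and at 0.208 FPKM or less in the 7 other libraries, Col20a1 reached 0.196 FPKM, and Col9a2, Col19a1 and Col22a1 were at 0.03 FPKM or less. Col9a1 was listed at 0 in all 8 libraries.

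Of the beaded filament chains, all of type VI collagen, 3 of 6 were tested, and 2 of these were lower in pMSCs. Col6a1 was at 55.1, 44.8, 60.04 and 43.6 FPKM in pMSCs and at 118, 56.9, 85.2 and 89.4 FPKM in iwatMSCs. Col6a2 was at 42.8, 36.1, 42.5 and 35.7 FPKM in pMSCs and at 88.7, 42.9, 61.9 and 65.4 FPKM in iwatMSCs. In both genes iwatMSC replicate 1 was the highest and replicate 2 the lowest of its group, and replicate 2 lay at the level of the highest pMSC libraries. Col6a1 was lower in pMSCs by -0.73 ± 0.20 (adjusted p = 0.0329) and Col6a2 by -0.67 ± 0.19 (adjusted p = 0.0367). The call of Col6a1 was lost without pMSC replicate 1, 2 or 4 and without iwatMSC replicate 1, 3 or 4 (adjusted p of 0.0508 to 0.0833), and that of Col6a2 without any pMSC library or iwatMSC replicate 3 or 4 (adjusted p of 0.0593 to 0.0879).

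Col6a3, the large chain of the common type VI trimer, was at 63.9, 61.2, 70.9 and 75.3 FPKM in pMSCs and at 81.0, 51.9, 77.7 and 84.0 FPKM in iwatMSCs. The groups overlapped on both sides, and the log2 fold change was -0.10 ± 0.15 (adjusted p = 0.695). Col6a2 and Col6a1 are neighbours on chromosome 10, 85161 bases apart on the same strand, while Col6a3 is on chromosome 1. Col6a4, Col6a5 and Col6a6 form a cluster on chromosome 9 and were low, with Col6a6 at 0.730 FPKM in iwatMSC replicate 1 and all else at 0.289 FPKM or less.

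The multiplexins Col15a1 and Col18a1 encode chains with heparan or chondroitin sulfate at basement membrane zones, whose ends can be released as fragments. Col15a1 was at 70.4, 61.8, 73.5 and 64.1 FPKM in pMSCs and at 15.6, 9.63, 13.3 and 13.3 FPKM in iwatMSCs. The groups were far apart in every library, and Col15a1 had rank 1056 of all genes by mean FPKM in pMSCs and rank 5535 in iwatMSCs. Col15a1 was higher in pMSCs by 2.31 ± 0.13 (adjusted p = 4.92e-06), a 5.21-fold ratio of the group means, and it was called in all 19 alternative fits. Col18a1 was at 7.42, 4.84, 5.06 and 5.90 FPKM in pMSCs and at 4.65, 3.24, 4.83 and 4.03 FPKM in iwatMSCs. Its groups barely separated, at pMSC replicate 2 and iwatMSC replicate 3, and the log2 fold change of 0.39 ± 0.14 did not pass (adjusted p = 0.0955). Slc19a1, on the opposite strand of Col18a1, had means of 10.3 FPKM (pMSCs) and 8.65 FPKM (iwatMSCs).

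Among the transmembrane chains only Col23a1 was tested, at 3.90, 2.64, 4.12 and 3.68 FPKM in pMSCs and at 2.68, 1.95, 1.06 and 1.38 FPKM in iwatMSCs. The groups met at pMSC replicate 2 and iwatMSC replicate 1. Col23a1 was higher in pMSCs by 0.75 ± 0.19 (adjusted p = 0.0227), a call lost without pMSC replicate 1, 3 or 4 and without iwatMSC replicate 3 or 4 (adjusted p of 0.0553 to 0.0632). Col13a1, Col17a1, a chain of epithelial hemidesmosomes, and Col25a1 were at 0.412 FPKM or less in every library, and 4 of the 5 annotated transcripts of Col17a1 were in the table.

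Col7a1, which builds the anchoring fibrils under the epidermis, was at 0.793 to 1.44 FPKM in pMSCs and 1.24 to 2.46 FPKM in iwatMSCs, which overlapped (log2 fold change -0.41 ± 0.16, adjusted p = 0.0982), and was called lower without iwatMSC replicate 2 (adjusted p = 0.0315). Col28a1, a chain with von Willebrand factor type A domains, was at 0.819, 1.14, 1.51 and 1.27 FPKM in pMSCs and at 3.24, 1.53, 2.09 and 2.27 FPKM in iwatMSCs. It was lower in pMSCs by -0.57 ± 0.17 (adjusted p = 0.0411), with hardly a gap between pMSC replicate 3 and iwatMSC replicate 2, and the call was lost without pMSC replicate 1, 2 or 4 and without iwatMSC replicate 1, 3 or 4 (adjusted p of 0.0648 to 0.103). Col26a1 was at 0.0027 FPKM or less in every library.

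Summed by class, the fibrillar chains had 1172, 992, 1233 and 936 FPKM in pMSCs and 1090, 531, 752 and 767 FPKM in iwatMSCs. Network chains had 335 ± 16.98 against 267 ± 31.6 FPKM, FACIT chains 85.8 ± 5.62 against 92.2 ± 15.3 FPKM, and transmembrane chains 3.91 ± 0.702 against 1.93 ± 0.740 FPKM. Beaded filament chains had 158 ± 13.2 against 226 ± 56.4 FPKM and multiplexins 73.2 ± 5.87 against 17.1 ± 3.10 FPKM. As a share of the collagen FPKM of a library, beaded filament chains made up 8.70 to 9.88% in pMSCs and 15.3 to 16.8% in iwatMSCs, and multiplexins 4.08 to 4.47% and 1.14 to 1.31%. These shares did not overlap between the groups, whereas those of fibrillar and network chains did. The FPKM sums of beaded filament chains did overlap, at 142 to 174 in pMSCs and 152 to 288 in iwatMSCs. Those of multiplexins did not, at 66.6 to 78.6 and 12.9 to 20.2 FPKM. A share also depends on the collagen total of its library, and the sums and shares were not tested.

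**Figure D3:**
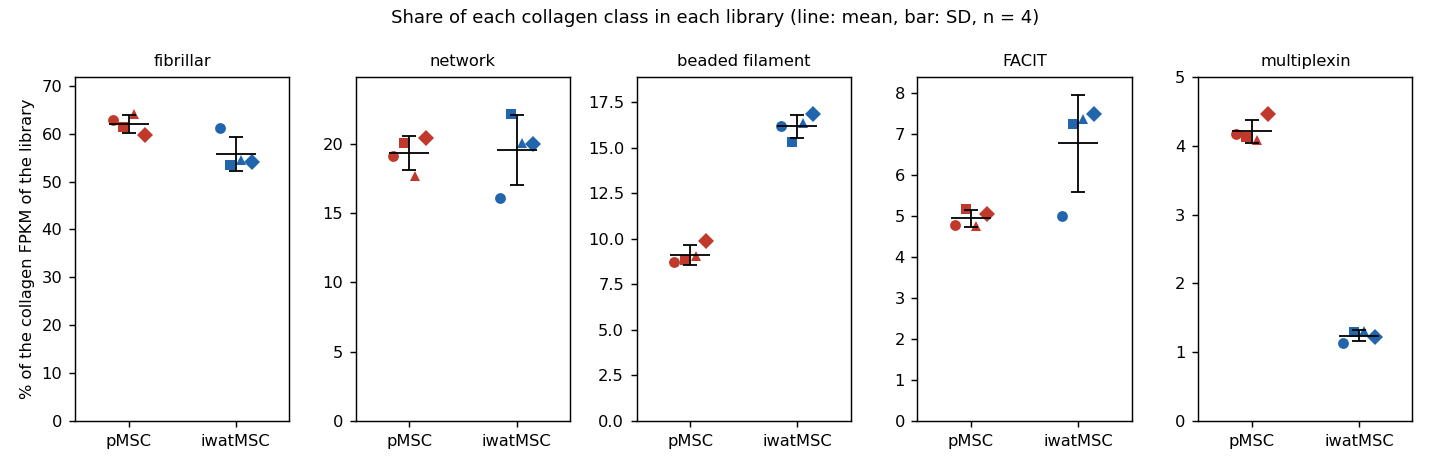
Percent of the collagen FPKM of each library (axis from 0, with its own range in each panel) held by 5 classes, as points for the 4 pMSC (red) and 4 iwatMSC (blue) libraries, with marker shapes for the replicates, a line for the mean and a bar for the SD. Beaded filament (9.10 ± 0.538% against 16.2 ± 0.632%) and multiplexin chains (4.21 ± 0.173% against 1.24 ± 0.0815%) separate the groups, while network chains (19.3 ± 1.23% against 19.6 ± 2.52%) do not.

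The spread between libraries was wider in iwatMSCs than in pMSCs for 18 of the 22 tested chains. The median coefficient of variation was 12.1% in pMSCs and 23.4% in iwatMSCs, while over all genes tested it was 11.4% and 11.9%. The iwatMSC libraries were ordered alike in most chains. Replicate 2 was the lowest of its group in 19 of the 22 chains, against 27.6% of all genes tested, and replicate 1 the highest in 13 of the 22, against 28.9% of all genes. Chains therefore share much of their spread between these libraries, and their calls are not independent of each other.

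Chains can also be compared within a library, where a shift shared by both cancels. Of 10 ratios of FPKM between chains, 4 did not overlap between the groups, and the exact two-sided permutation test over 70 assignments gave its smallest possible p of 0.0286 for each, which became 0.0714 after adjustment over the 10, so that none passed. With 4 libraries a group, a ratio could pass only if 6 or more of the 10 separated completely. Ratios between other genes were not computed, so the count of 4 has no background share and is not read as a result. Some pairs also share a chain, and a ratio can separate through 1 of its chains alone. Col1a1/Col1a2 was 0.748, 0.642, 0.636 and 0.525 in pMSCs and 0.455, 0.256, 0.281 and 0.319 in iwatMSCs. Every pMSC library was thus nearer to equal FPKM of both type I chains than any iwatMSC library was. Col6a3/Col6a1 was 1.16, 1.37, 1.18 and 1.73 in pMSCs and 0.687, 0.912, 0.912 and 0.9405 in iwatMSCs, so that Col6a3 was above Col6a1 in all pMSC and below it in all iwatMSC libraries.

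Col18a1/Col15a1 was 0.0688 to 0.105 in pMSCs and 0.298 to 0.364 in iwatMSCs. Most of this lies in Col15a1, with a ratio of group means (pMSC over iwatMSC) of 5.21, against 1.39 for Col18a1. Col12a1/Col1a1 was 0.165 to 0.197 in pMSCs, and 0.220, 0.524, 0.538 and 0.531 in iwatMSCs, where replicate 1 stood near the pMSCs. The other pairs overlapped between the groups, which does not show that they were equal. Col6a1/Col6a2 was 1.29 ± 0.0850 in pMSCs and 1.35 ± 0.0246 in iwatMSCs (exact p = 0.229, adjusted p = 0.286), although Col6a1 itself ranged from 56.9 to 118 FPKM among the iwatMSC libraries. Col4a1/Col4a2 was 1.64 ± 0.0681 and 1.80 ± 0.0795 (exact p = 0.0571, adjusted p = 0.114), and Col5a1/Col5a2 was 0.310 ± 0.0153 and 0.298 ± 0.0398 (exact p = 0.571, adjusted p = 0.571). The ratios of Col3a1, Col5a1 and Col5a2 to Col1a1 overlapped between the groups (adjusted p of 0.143 to 0.317). FPKM ratios depend on the transcript models, so their distance from the ratio in the trimer was not read.

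**Figure D4:**
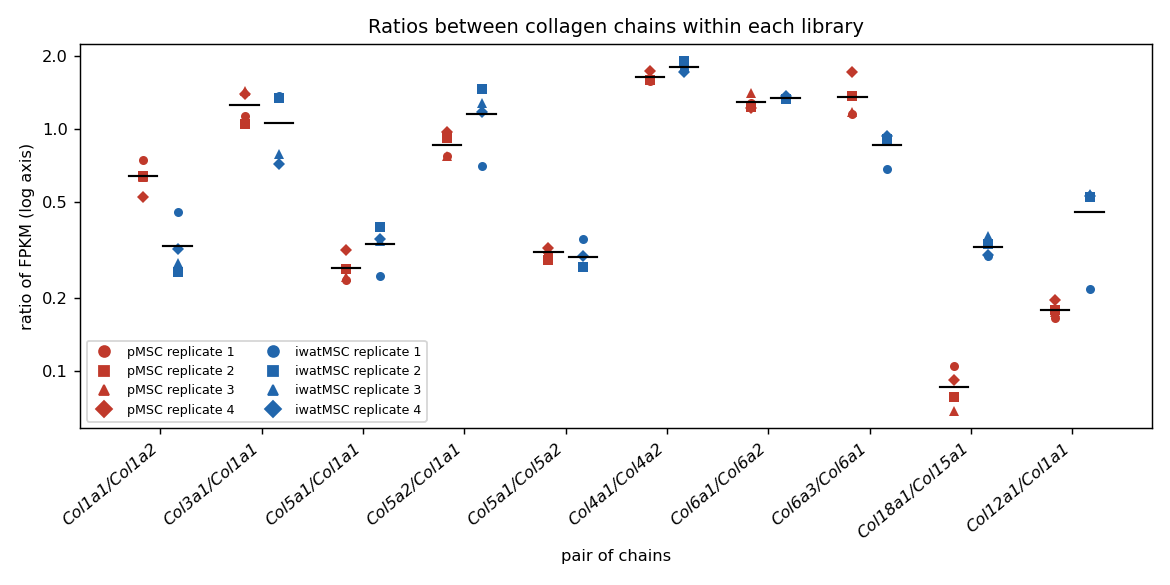
Ratio of FPKM (log axis) for 10 pairs of collagen chains in each of the 4 pMSC (red) and 4 iwatMSC (blue) libraries, with marker shapes for the replicates and a black line for the group mean. Col1a1/Col1a2, Col6a3/Col6a1, Col18a1/Col15a1 and Col12a1/Col1a1 do not overlap between the groups, and Col6a1/Col6a2 lies between 1.22 and 1.41 in all libraries.

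At the level of transcripts, 219 of the collagen genes were in the table and 51 from 21 genes averaged 1 FPKM or more, of which 31 were protein coding and 16 had a retained intron. By limma, 7 of the 51 were called, where 5.54% of all transcripts tested were, with 5 higher (2.79% of all) and 2 lower (2.75% of all). Those higher in pMSCs were Col8a1-201 (24.4 ± 6.43 against 6.46 ± 1.17 FPKM, adjusted p = 0.00168), Col15a1-202 (26.5 ± 3.73 against 5.72 ± 2.703 FPKM, adjusted p = 0.00298), Col14a1-204 (4.39 ± 1.64 against 0.336 ± 0.571 FPKM, adjusted p = 0.00811), Col5a2-201 (154 ± 17.98 against 98.3 ± 16.5 FPKM, adjusted p = 0.0410) and Col14a1-203 (adjusted p = 0.0439). Those lower were Col5a3-201 (9.91 ± 0.898 against 15.3 ± 1.52 FPKM, adjusted p = 0.0152) and Col6a2-202 (5.08 ± 0.426 against 11.4 ± 3.05 FPKM, adjusted p = 0.0297). Col14a1-203 was listed at 0 in 3 iwatMSC libraries and was at 1.46 FPKM in replicate 1. Only Col8a1-201, Col15a1-202 and Col14a1-204 were called in all 8 fits that left out a library. All 7 called transcripts are protein coding. The 19 others that averaged 5 FPKM or more were not called, namely Col1a1-201, Col1a2-201, Col3a1-201, Col4a1-201, Col4a2-201, Col5a1-201, Col6a1-201, Col6a2-201, Col12a1-201, Col15a1-201, Col16a1-201, Col1a2-205, Col5a2-203, Col6a3-202, Col6a3-203, Col6a3-207, Col16a1-202, Col16a1-209 and Col16a1-210.

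The share of the leading transcript was compared in 12 genes averaging 5 FPKM or more with 2 or more transcripts at 1 FPKM. It did not pass in any (exact permutation test, smallest adjusted p = 0.171). In this design a share could pass only if 7 or more of the 12 separated completely. The leading transcript held more than 90% of the FPKM of Col1a1, Col1a2, Col4a1 and Col4a2 in every library. Col12a1-201 held 87.3, 88.5, 92.4 and 93.4% of Col12a1 in pMSCs and 80.7, 84.7, 84.0 and 82.1% in iwatMSCs, with no overlap (exact p = 0.0286, adjusted p = 0.171). In Col15a1, 2 full-length transcripts of 5102 and 5172 bases shared nearly all FPKM. Col15a1-201 was at 44.8, 35.2, 38.8 and 38.1 FPKM in pMSCs and at 10.3, 0.0151, 8.48 and 9.32 FPKM in iwatMSCs. In iwatMSC replicate 2, which had almost none of it, Col15a1-202 was at 9.61 FPKM and thus higher than in the 3 other iwatMSC libraries (3.46 to 5.32 FPKM). Col15a1-201 was not called (adjusted p = 0.0795), except without that library (adjusted p = 0.000332) and with a pseudocount of 5, whereas the gene sum of that library (9.63 FPKM) was nearer to those of its group (13.3 to 15.6 FPKM).

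The FPKM of Col16a1 were divided among 7 transcripts averaging 1 FPKM or more, and the division differed between replicates of a group. Col16a1-210 was at 19.1 FPKM in pMSC replicate 1 and 23.3 FPKM in iwatMSC replicate 2, and at 4.01 to 5.99 FPKM in the other 6 libraries. Col16a1-202 was at 0.531 to 14.0 FPKM over the 8 libraries. Over the same libraries the gene sum ranged only from 32.5 to 44.3 FPKM. How StringTie divides reads among overlapping transcripts was not tested.

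**Figure D5:**
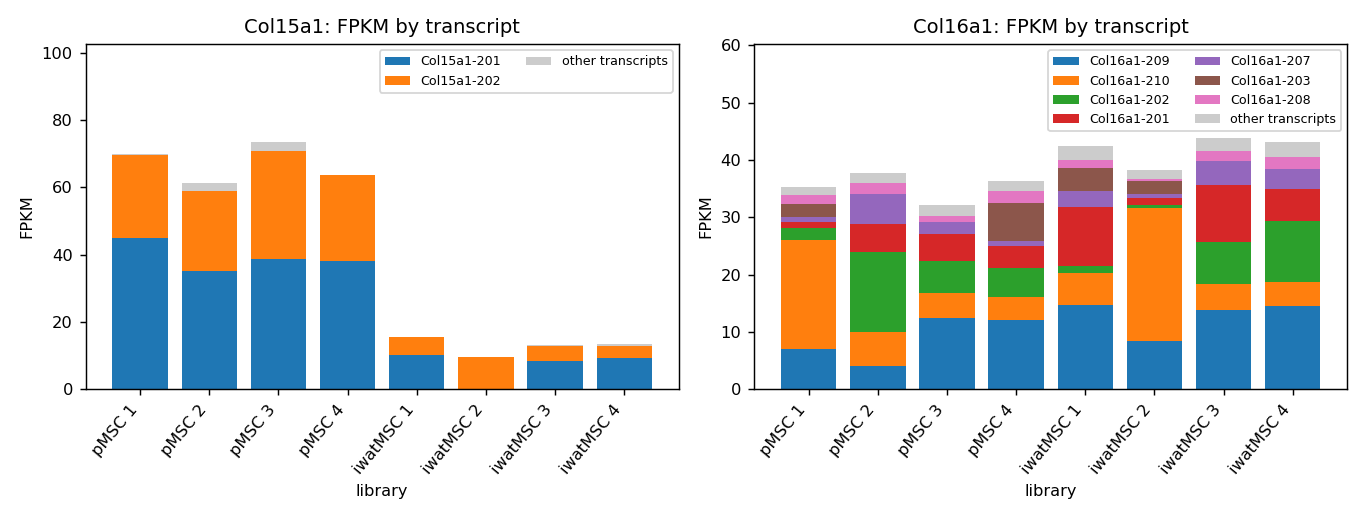
FPKM of each transcript averaging 1 FPKM or more, stacked by library, for Col15a1 (left) and Col16a1 (right), with the remaining transcripts in grey. Col15a1-201 is missing from the bar of iwatMSC replicate 2 (0.0151 FPKM), and Col16a1-210 is wide in pMSC replicate 1 (19.1 FPKM) and iwatMSC replicate 2 (23.3 FPKM) only.

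Sequence before the start of the gene was compared with short motifs. RefSeq windows from 250 bases before to 50 bases after the start (GRCm38.p6) were found for 35 of the 44 members and for 18 of the 22 tested, not for Col1a1, Col5a2, Col12a1 and Col14a1. GGGCGG (a GC box), on either strand, was in a window of 13 of the 18, against 35.7% of 32851 windows of all genes. CCAAT was in 8 of the 18, against 37.4%, and TATAAA in 1 of the 18, Col3a1, against 13.6%. Members were counted by gene, over all windows of a gene, and the background by window, with no filter on expression. The last 100 bases before the start are shown for Col15a1, Col8a1 and Col5a3, whose calls held whichever library was left out, and for Col5a1, which with Col5a3 belongs to type V but was called in the opposite direction, with GGGCGG or its reverse complement CCGCCC in capitals. They are Col15a1 at chr4:47207912-47208011 (plus strand), Col8a1 at chr16:57754738-57754837 (minus strand), Col5a1 at chr2:27886325-27886424 (plus strand) and Col5a3 at chr9:20815068-20815167 (minus strand).
Col15a1 upstream: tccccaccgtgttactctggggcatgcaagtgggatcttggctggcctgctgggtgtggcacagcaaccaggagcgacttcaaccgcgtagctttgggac
Col8a1 upstream: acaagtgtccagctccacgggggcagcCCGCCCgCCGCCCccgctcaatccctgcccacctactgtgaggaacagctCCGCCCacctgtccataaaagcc
Col5a1 upstream: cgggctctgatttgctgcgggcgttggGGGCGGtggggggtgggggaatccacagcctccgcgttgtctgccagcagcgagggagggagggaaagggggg
Col5a3 upstream: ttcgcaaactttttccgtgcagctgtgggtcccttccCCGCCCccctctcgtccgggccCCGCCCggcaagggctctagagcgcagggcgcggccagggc
The stretch of Col15a1 has no such box, and those of Col8a1, Col5a1 and Col5a3 have at least 1. Their positions are unlike. The stretch of Col15a1 ends at the RefSeq start, upstream of the GENCODE M21 start at chr4:47208161, and the others adjoin the GENCODE start. In the wider window the box was present in chains called higher (Col8a1, Col5a1, Col4a2, Col23a1) and in chains called lower (Col5a3, Col6a2).

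Enzymes and receptors that act on collagen chains were taken as a list of 43 genes, of which 36 were tested, 13 were higher and 1 was lower in pMSCs (background 9.02% and 10.4%), with a median log2 fold change of 0.24. By role, 4 of 15 tested genes of hydroxylation and folding were higher and 1 was lower, 2 of 6 genes of propeptide cleavage, 2 of 5 cross-linking oxidases and 5 of 7 receptors were higher, and 0 of 3 export genes was called. Plod2, the lysyl hydroxylase of telopeptides, averaged 75.7 ± 14.6 FPKM (pMSCs) against 17.7 ± 2.17 FPKM (iwatMSCs), higher by 2.03 ± 0.14 (adjusted p = 1.33e-05). Itga11, a subunit of a collagen-binding integrin, was at 5.95 ± 1.10 against 0.932 ± 0.857 FPKM, higher by 1.92 ± 0.25 (adjusted p = 0.000794). Loxl2, a lysyl oxidase that cross-links type IV collagen, was at 48.5 ± 9.17 against 16.2 ± 5.75 FPKM, higher by 1.56 ± 0.21 (adjusted p = 0.00101). P4ha3, a prolyl hydroxylase subunit, was lower, at 5.05 ± 0.638 against 16.5 ± 4.03 FPKM (log2 fold change -1.51 ± 0.17, adjusted p = 0.000275), while its relatives P4ha1 and P4ha2 were among the genes higher in pMSCs.

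Lists of markers of cell types were read in each library, and a marker does not show which cells expressed it. All 6 mesenchymal markers were expressed, with a sum of 798 to 904 FPKM in pMSCs and 844 to 1316 FPKM in iwatMSCs, where Pdgfra was called higher in pMSCs (152 against 67.0 FPKM on average) and Dcn lower (289 against 483 FPKM). The 7 pancreatic acinar markers, all called higher in pMSCs, summed to 231, 137, 44.8 and 60.4 FPKM in pMSC replicates 1 to 4 and to 1.74 to 3.69 FPKM in iwatMSCs. The 6 mesothelial markers, of which Wt1, Krt8, Upk3b and Lrrn4 were higher and Krt19 lower, summed to 26.6 to 38.1 against 5.69 to 14.5 FPKM, with Msln at or near 0. The 6 pericyte and smooth muscle markers, of which Des and Cspg4 were higher, summed to 21.997 to 31.9 against 5.07 to 9.93 FPKM, with Rgs5 and Myh11 under 1 FPKM on average. The 6 endothelial markers summed to 2.34 to 3.65 against 7.18 to 9.31 FPKM with Emcn at 0. Most of this was Tek, called lower in pMSCs (2.35 against 6.14 FPKM on average). The 6 leukocyte markers summed to 5.50 to 7.55 against 16.1 to 19.5 FPKM with Adgre1 and Cd3e at 0. Nearly all of this was Cd68 (2.45 against 8.30 FPKM) and Csf1r (3.65 against 8.69 FPKM), both called lower in pMSCs. Of the 5 chondrocyte markers only Sox9 was above 1 FPKM. Of the 4 Schwann cell markers, Sox10 was at 0 and S100b was lower in pMSCs, and the 4 adipocyte markers summed to less than 1 FPKM in every library. Pecam1 (CD31) and Ptprc (CD45), the markers sorted against, averaged 0.246 and 0.011 FPKM in pMSCs and 0.176 and 0.009 FPKM in iwatMSCs. The part of other cell types in the collagen values was not tested. Without pMSC replicates 1 and 2 the adjusted p of Col15a1, Col8a1, Col14a1 and Col5a3 was 0.000438, 0.00346, 0.0116 and 0.0439, while the pMSC libraries kept in that fit still held 44.8 and 60.4 FPKM of acinar markers.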

How the data were processed

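The authors expanded sorted cells, and mRNA was sequenced on a BGISEQ platform. Per the study's methods and the submitters' processing notes, reads were aligned with STAR to GRCm38.p6 and StringTie gave FPKM per Ensembl transcript, with default options for paired reads. The deposited table of FPKM has 136535 transcripts, 8 columns of libraries and 0 columns of values without a sample. Of the transcripts 136372 (99.88%) matched GENCODE M21 by identifier, and unmatched ones made up no more than 0.0505% of any library. FPKM of a gene is the sum over its matched transcripts, so it depends on transcript lengths and on how reads are divided among overlapping transcripts. Total FPKM ran from 437894 to 458616 per library, and between 13092 and 13313 genes reached 1 FPKM. The depth in reads and the strand setting are not given in the sources used here.

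Genes and transcripts with a mean of at least 1 FPKM entered a limma fit (version 3.58.1, R 4.3.3) of log2(FPKM + 1) on organ, without covariates and with moderated variances that follow a trend. Differences are pMSC minus iwatMSC, two-sided, and were called where the Benjamini-Hochberg adjusted p was under 0.05. Ratios between chains and shares of leading transcripts were compared by exact permutation tests over the 70 assignments of 4 and 4 libraries. The members, classes, marker lists and the list of collagen enzymes and receptors were chosen with earlier results of these data known. All members are named by values or counts, with full statistics for those called or averaging 10 FPKM or more in a group. Transcripts are named when called or averaging 5 FPKM or more, or where a library stood apart, which was chosen after the values were seen. Of the enzymes and receptors up to 3 called genes in each direction with the largest change are named.

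Alternatives were pseudocounts of 0.1 and 5, no filter, at least 5 FPKM on average, TPM in place of FPKM, median-of-ratios scaling, quantile normalization, protein-coding transcripts only, array weights, a test with unequal variances, each library left out and pMSC replicates 1 and 2 left out. Promoter windows are from RefSeq on GRCm38.p6, and coding stretches from the GENCODE M21 transcripts.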

Additional observations from a re-analysis of the deposited data

Results flagged for a closer look

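In groups of 4 libraries, a value was picked out where its gap to the nearest other library exceeded Dixon's critical share of the range of the group. Of 88 groups (22 genes, 10 ratios and 12 transcript shares in each organ) 8 were picked out, and chance picks about 1 in 20. For iwatMSC replicate 1 these were Col14a1 at 2.73 FPKM (0.221 to 0.228 in the others), Col3a1 at 267 FPKM (82.7 to 85.2 in the others), the Col6a3/Col6a1 ratio of 0.687 (0.912 to 0.9405 in the others), the Col12a1/Col1a1 ratio of 0.220 (0.524 to 0.538 in the others) and the share of Col14a1-203 in its gene of 53.3% (0% in the others). For iwatMSC replicate 2 they were Col5a2 at 93.1 FPKM (135 to 137 in the others) and the share of Col15a1-201 in its gene of 0.157% (63.9 to 70.1% in the others). For pMSC replicate 3 it was Col8a1 at 34.0 FPKM (20.1 to 22.2 in the others). The shares of 0% for Col14a1-203 come from iwatMSC libraries where the whole gene was at only 0.221 to 0.228 FPKM. The flag of this share and that of Col14a1 are therefore not separate.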

How the results depend on the processing

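The number of all genes called, 2589, was 1017 under the test with unequal variances and 1468 without pMSC replicates 1 and 2. Collagen genes called higher numbered 8, but 1 with unequal variances, 3 without pMSC replicates 1 and 2, and 3 to 9 on leaving out each library. Those called lower numbered 4, but 2 without a filter, 2 with protein-coding transcripts only, 1 with unequal variances, 1 without pMSC replicates 1 and 2, and 1 to 7 on leaving out each library. Transcripts called higher numbered 5, but 3 at a mean of 5 FPKM and 3 to 8 on leaving out each library, and those called lower 2, with 0 to 4. Fits with fewer libraries have less power. Signs turned only in values that were not called. Col1a2 had a log2 fold change of 0.0025 after rescaling to TPM, 0.032 after quantile normalization and -0.19 to 0.066 on leaving out each library, and Col6a3 had 0.013 without pMSC replicates 1 and 2. Among transcripts, Col1a2-201 had 0.0031 after rescaling to TPM and -0.19 to 0.073 on leaving out each library, where Col6a3-203 had -0.26 to 0.069, Col5a2-203 -0.071 to 0.34, Col1a2-205 -0.70 to 0.16, Col16a1-210 -0.52 to 0.45 and Col6a3-207 -0.46 to 0.025. The log2 ratio of Col5a1 to Col5a2 was -0.027 with protein-coding transcripts only, against 0.064. No paired analysis was possible because the labels give no replicate number or pair shared between the organs. Depth in reads is unknown, so values under 1 FPKM carry no counting error.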
